A study of Saccharomyces cerevisiae with 11 samples.

Results

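These results concern 10 genes of the cell wall of budding yeast (Saccharomyces cerevisiae) and of the signalling pathway that guards it, out of 5656 genes that had a probe set of their own. They are the kinase gene SLT2, the transcription factor gene RLM1, the PIR protein genes PIR1, HSP150, PIR3 and CIS3, and the wall protein genes CWP1, CWP2, SED1 and PST1. Each had exactly 1 probe set listing that gene alone, so all 10 were measured once on every array. The genes were chosen by family and pathway with earlier results of the same 11 arrays known, among them the score of PIR3 in the paf1 deletion. Their values are therefore given as a description, without p-values, and serve as support for nothing.

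Affymetrix arrays had been hybridized with labelled cRNA made from total RNA of liquid cultures in mid-log growth, 1 array per sample. Of the 5 strain arrays, 2 were of a paf1 deletion, 1 of a ctr9 deletion and 2 of wild type, all grown in the rich medium YPD with 4% glucose. Paf1 and Ctr9 are subunits of the Paf1 complex, which travels with RNA polymerase II. The other 6 arrays followed a strain with PAF1 under the doxycycline-repressed TetO2 promoter, sampled without doxycycline (0 h) and after 2, 4, 5, 6 and 8 h with it, 1 array per time. No array was of another strain with doxycycline or of a later time without it. In the time course, loss of PAF1 thus cannot be told apart from the drug or the time in culture. The medium of the TetO2-PAF1 strain was not given in the labels. Strain backgrounds and mating types were not given either, so the deletion of a subunit cannot be told apart from another difference between the strains. Whether replicates came from separate cultures was not stated, so p-values measure only the spread between these arrays. RNA came from bulk cultures, in which a change in the share of cells that express a gene and a change per cell cannot be told apart.

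The yeast wall is a mesh of glucan and chitin coated with mannoproteins. Most of these hang on beta-1,6-glucan through the remnant of a glycosylphosphatidylinositol (GPI) anchor, as Cwp1, Cwp2, Sed1 and Pst1 do. PIR proteins, named for their internal repeats, are instead bound directly to beta-1,3-glucan by a bond that mild alkali breaks. Damage to the wall is sensed at the membrane by the Wsc and Mid2 proteins, which act through the GTPase Rho1 and the kinase Pkc1 on a mitogen-activated protein (MAP) kinase cascade ending in Slt2. Slt2 phosphorylates the transcription factor Rlm1, and genes of wall proteins, several PIR genes among them, are known targets. In the genome order of the RefSeq annotation (assembly R64), PIR1 and PIR3 were immediate neighbours on chromosome XI, as were CWP1 and CWP2, and HSP150 lay between CIS3 and PIR5 on chromosome X.

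The files held different kinds of values for the 2 parts of the study. Time course values were linear signals, scaled to a common level, with 28 control probe sets without a yeast target reaching at most 44.2. Strain values were scores bounded at -10 and 10 with an unstated scale, on which the same controls ranged from -2.08 to 1.93. Across the tested probe sets the mean score followed the mean signal (Spearman correlation 0.834 across probe sets), but among the 10% with the highest signals it did not (-0.362). A score difference is thus no fold change. For an abundant transcript it may be flattened, and its direction need not be that of the transcript level. This bears on 7 of the 10 genes, namely PIR1, HSP150, CIS3, CWP1, CWP2, SED1 and PST1, whose signals were among the highest 10%. Wild type replicate 1 scored above replicate 2 by a median of 0.28 over all tested probe sets and 0.64 among that highest 10%, and it did so for all 10 genes. The 4 h array had an actin ratio (5' over 3' probe sets) of 5.92%, beside 68.6% to 78.6% on the other time course arrays. Its spike-in controls were 4.34 times as bright as on the 0 h array, and those of the 6 h array 3.93 times. As a check of the labels, PAF1 scored 1.00 and 0.47 in the paf1 deletion, 6.86 in the ctr9 deletion and 7.27 and 8.08 in wild type. CTR9 scored 0.00 in the ctr9 deletion, 3.81 and 4.90 in the paf1 deletion and 1.84 and 4.36 in wild type. The first wild type score of CTR9 lay among those of the untargeted controls, so this check of the ctr9 label is weak. PAF1 signal was 272, 119, 139, 165, 184 and 166 (0, 2, 4, 5, 6 and 8 h).

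PIR3 differed from the other 9 genes in the size of its score differences and signal ratios, though score differences of 7 of those may be flattened. Its score was higher in both deletions than in wild type, by 3.84 for paf1 and 2.89 for ctr9, and its signal was 1.94- to 4.43-fold that of 0 h at every later time. The other 9 genes differed by -0.84 to 0.36 for paf1 and by -0.94 to 0.54 for ctr9. Of the 10, 5 had a higher and 5 a lower mean score in the paf1 deletion, with a median of -0.07 beside -0.06 over all tested probe sets. In the ctr9 deletion the same split of 5 and 5 was found, with a median of 0.04 beside 0.04. Both comparisons use the same wild type arrays.

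**Figure D1:**
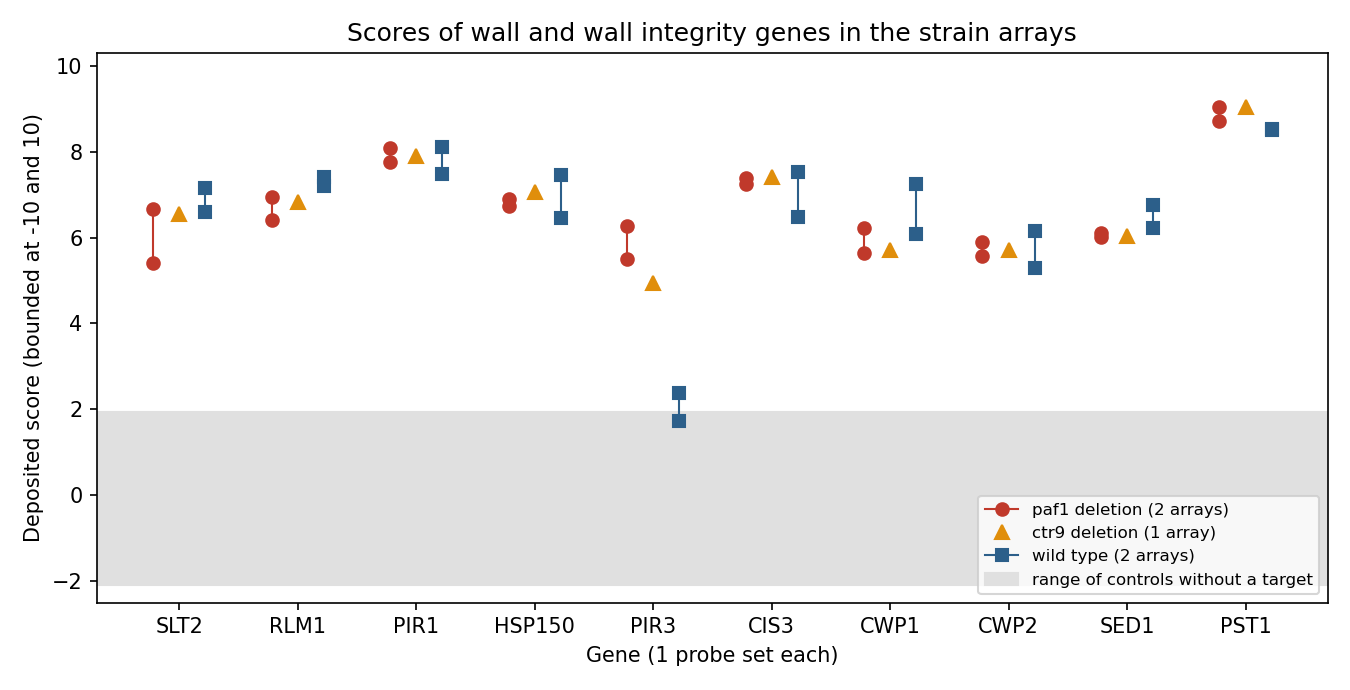
Deposited scores (vertical axis) of the 10 genes (horizontal axis) on the paf1 deletion arrays (circles), the ctr9 deletion array (triangles) and the wild type arrays (squares). Lines join replicates, and the grey band is the range of the 28 controls without a target, -2.08 to 1.93. PIR3 is the gene whose wild type scores lie at the edge of that band, 2.37 and 1.73, with 5.50 and 6.28 in the paf1 deletion.

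The signalling genes came first in the pathway. SLT2, which encodes the MAP kinase at the end of the cascade, scored 6.67 and 5.41 in the paf1 deletion, 6.56 in the ctr9 deletion and 7.15 and 6.60 in wild type. The upper paf1 deletion array lay within the wild type range and the lower one below it, so the groups overlapped. The mean difference of -0.84 (SE 0.58, n = 2 per group) was smaller than the gap of 1.26 between the paf1 deletion replicates. It was -1.47 without paf1 deletion replicate 1 and -0.21 without replicate 2. SLT2 signal was 333, 393, 375, 310, 378 and 450 (0, 2, 4, 5, 6 and 8 h). It was lowest at 5 h and highest at 8 h, 1.35-fold the 0 h value, and did not run steadily one way.

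RLM1, which encodes the MADS-box transcription factor that Slt2 activates, scored 6.95 and 6.41 in the paf1 deletion, 6.84 in the ctr9 deletion and 7.41 and 7.21 in wild type. All 3 deletion arrays lay below both wild type arrays. The difference was -0.63 for the paf1 deletion (SE 0.49, n = 2 per group) and -0.47 for the ctr9 deletion (SE 0.60, n = 1 against 2), each under 2 SE. Leaving out 1 array moved the paf1 deletion difference between -0.36 and -0.90. RLM1 signal was 448, 398, 359, 317, 366 and 496 (0, 2, 4, 5, 6 and 8 h). Signals of 2 to 6 h were all below 0 h, down to 0.71-fold at 5 h, and only that of 8 h was above it, at 1.11-fold. The fitted slope of 0.00 log2 per hour (SE 0.04, 6 arrays) hides this dip. It turned on single arrays, being -0.07 without the 8 h array and 0.05 without the 0 h array, and was -0.01 under quantile normalization.

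Among the PIR genes, PIR3 scored 5.50 and 6.28 in the paf1 deletion, 4.94 in the ctr9 deletion and 2.37 and 1.73 in wild type. All 3 deletion arrays stood more than 2 score units above the higher wild type array, and the replicate gaps were 0.78 in the paf1 deletion and 0.64 in wild type. The second wild type score lay among those of the untargeted controls, and the first just above them. The difference was 3.84 for the paf1 deletion (SE 0.63, n = 2 per group), the 36th largest in size among 6493 probe sets, and 2.89 for the ctr9 deletion (SE 0.77, n = 1 against 2). PIR3 passed the filter on the mean score (2.84) with a mean of 4.16 over the 5 arrays, although its wild type mean was 2.05, so it was tested only through its deletion scores.

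PIR3 signal was 106.5, 317.2, 325.7, 207.1, 249.7 and 471.6 (0, 2, 4, 5, 6 and 8 h). Every array after 0 h was above it, by ratios of 2.98, 3.06, 1.94, 2.35 and 4.43 (2, 4, 5, 6 and 8 h). The 5 h value was the lowest of the later ones, and the 8 h value the highest. All 5 ratios rest on the single 0 h array. The slope was 0.19 log2 per hour (SE 0.07, 6 arrays), and 0.07 without the 0 h array, so most of the difference lay between 0 and 2 h. PIR3 was the only 1 of the 10 genes that was at least 1.5-fold higher at all 5 later times, which held for 3.59% of the 6492 tested probe sets.

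The tested general stress genes had higher scores in both deletions, where PIR3 was high, and positive slopes in the time course. At single later times some were near 0 h and some below it. At 5 h, HSP26 was 1.07-fold and GPH1 1.03-fold the 0 h signal. Of the 20 listed, 17 were tested in the strain arrays, all had higher scores in the paf1 deletion (differences 0.32 to 4.79, median 2.46), and 7 passed the threshold there, beside 1.71% of all tested probe sets (limma, Benjamini-Hochberg). They were HSP12, HSP26, GPH1, TSL1, GRE1, MSC1 and TFS1. The list was chosen with earlier results of these arrays known, so nothing is read from its counts. SOL4, with wild type scores of 2.23 and 2.69 under the filter limit of 2.84, was tested only through its deletion scores. Wild type replicates were far apart in some of the list, as in GPH1 (2.05 and 4.55). In the ctr9 deletion 17 of 17 were higher (median 1.74) and 0 passed, with 11 at an unadjusted limma p under 0.05, beside 626 of all 6493. In the time course 17 of 17 had a positive slope (median 0.21 log2 per hour) and 0 passed, with 6 at an unadjusted p under 0.05, beside 560 of all 6492. SOL4, CTT1 and ALD3 had 0 h signals of 18.5, 23.5 and 29.5, under the signal filter limit of 37.39. They were thus tested there only through their later signals, and SOL4 was among the 6. Without either wild type array no probe set passed in the paf1 deletion, the general stress genes included. Their part in the PIR3 values was not tested.

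The other PIR genes showed no difference of that size. PIR1, its genomic neighbour, scored 7.75 and 8.08 in the paf1 deletion, 7.89 in the ctr9 deletion and 8.12 and 7.49 in wild type. All deletion arrays lay between the wild type arrays. The paf1 deletion difference was 0.11 (SE 0.41, n = 2 per group) and was -0.21 without wild type replicate 2. PIR1 signal was 4453, 4944, 3927, 5300, 5336 and 4677 (0, 2, 4, 5, 6 and 8 h), a range of 1.36-fold with its lowest value at 4 h.

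HSP150, also called PIR2, encodes an O-mannosylated protein that is secreted as well as bound to the wall and is induced by heat shock. Its scores were 6.89 and 6.74 in the paf1 deletion, 7.07 in the ctr9 deletion and 7.45 and 6.45 in wild type, again with every deletion array between the wild type pair. The paf1 deletion difference was -0.14 (SE 0.52, n = 2 per group), and it was 0.36 without wild type replicate 1. HSP150 signal was 7991, 8945, 3413, 7907, 8523 and 9439 (0, 2, 4, 5, 6 and 8 h). The 4 h array stood apart at 0.43-fold the 0 h signal, while the other 4 later times lay between 0.99- and 1.18-fold. This is the array with the actin 5' to 3' ratio of 5.92%, whose part in the HSP150 value was not tested.

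CIS3, also called PIR4, encodes a PIR protein and lies next to HSP150 in the genome. It scored 7.40 and 7.26 in the paf1 deletion, 7.42 in the ctr9 deletion and 7.54 and 6.47 in wild type. The deletion arrays lay within the wild type range, whose width of 1.07 exceeded the paf1 deletion difference of 0.32 (SE 0.51, n = 2 per group, -0.21 without wild type replicate 2). CIS3 signal was 9462, 9614, 10173, 9551, 8641 and 10588 (0, 2, 4, 5, 6 and 8 h). It varied by 1.23-fold in all, the narrowest range of the 10 genes, and unlike HSP150 it was not low at 4 h.

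**Figure D2:**
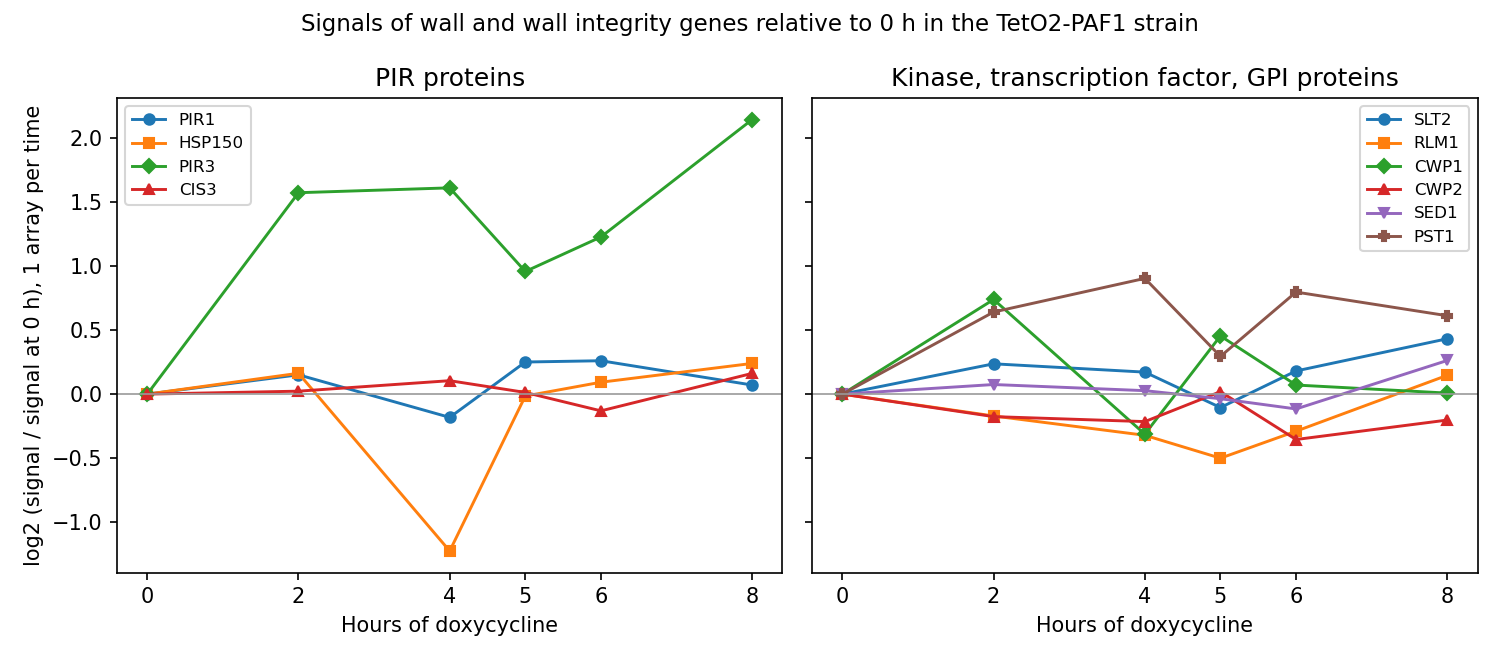
Signal relative to 0 h on a log2 scale (vertical axis) against hours of doxycycline (horizontal axis) for the PIR genes (left) and the other 6 genes (right), 1 array per time. PIR3 is above 0 at all 5 later times and ends at 2.15, while HSP150 dips to -1.23 at 4 h.

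Of the GPI wall proteins, Cwp1 is a mannoprotein found mainly at the birth scar. CWP1 scored 5.64 and 6.22 in the paf1 deletion, 5.72 in the ctr9 deletion and 7.24 and 6.08 in wild type. The second paf1 deletion array lay inside the wild type range, so the groups overlapped, and the difference of -0.73 (SE 0.58, n = 2 per group) was smaller than the wild type gap of 1.16. It was -0.15 without wild type replicate 1 and -1.31 without replicate 2. CWP1 signal was 2409, 4024, 1940, 3302, 2531 and 2423 (0, 2, 4, 5, 6 and 8 h). It was highest at 2 h, 1.67-fold the 0 h value, and back at 1.01-fold by 8 h.

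CWP2, the neighbour of CWP1, encodes a major small mannoprotein of the wall. Its scores were 5.89 and 5.57 in the paf1 deletion, 5.72 in the ctr9 deletion and 6.15 and 5.30 in wild type. All deletion scores lay between the wild type ones, and the differences of both deletions rounded to 0.01 or less in size (SE 0.55 for paf1, 0.68 for ctr9). The paf1 deletion difference was 0.43 without wild type replicate 1 and -0.42 without replicate 2. Its signal was 11704, 10357, 10081, 11859, 9148 and 10167 (0, 2, 4, 5, 6 and 8 h), within 1.30-fold overall. The peak of CWP1 at 2 h was thus not seen in CWP2.

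SED1, which encodes an abundant GPI glycoprotein of stationary and stressed cells, scored 6.02 and 6.11 in the paf1 deletion, 6.04 in the ctr9 deletion and 6.76 and 6.23 in wild type. The 3 deletion arrays lay within 0.1 of each other and below both wild type arrays. The difference of -0.43 for the paf1 deletion (SE 0.52, n = 2 per group) was smaller than the gap of 0.53 between the wild type arrays, and was -0.17 without wild type replicate 1 and -0.69 without replicate 2. SED1 signal was 8428, 8878, 8589, 8220, 7776 and 10111 (0, 2, 4, 5, 6 and 8 h). Only 8 h departed from the rest, at 1.20-fold the 0 h signal.

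PST1 encodes a GPI protein first found in the secretions of regenerating protoplasts and is a known target of the Slt2 pathway. It scored 8.71 and 9.05 in the paf1 deletion, 9.05 in the ctr9 deletion and 8.53 and 8.50 in wild type. All 3 deletion arrays lay above both wild type arrays, which differed by only 0.03. The difference was 0.36 for the paf1 deletion (SE 0.28, n = 2 per group) and 0.54 for the ctr9 deletion (SE 0.34, n = 1 against 2). Leaving out 1 array kept the paf1 deletion difference between 0.20 and 0.54. PST1 signal was 1447, 2259, 2710, 1775, 2516 and 2213 (0, 2, 4, 5, 6 and 8 h). Every later array was above 0 h, by ratios of 1.56, 1.87, 1.23, 1.74 and 1.53 (2, 4, 5, 6 and 8 h), and as in PIR3 the 5 h array was the lowest of them. The slope of 0.06 log2 per hour (SE 0.04, 6 arrays) was -0.01 without the 0 h array.

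Read together over the strain arrays, PIR3 and PST1 had both paf1 deletion scores above both wild type scores, RLM1 and SED1 had both below, and 6 genes overlapped. These 2 of 10 stand beside 19.4% of all tested probe sets with the paf1 deletion arrays above, and 2 of 10 beside 24.1% with them below, so both shares were near the background. By the limma fit PIR3 was 1 of 10 past the threshold in the paf1 deletion, where 1.71% of 6493 probe sets passed. Since that contrast was known when the genes were chosen, nothing is read from this count. Without wild type replicate 1, or without replicate 2, 0 probe sets passed, PIR3 included, with PIR3 differences of 4.16 and 3.52. In the ctr9 deletion 0 of 10 passed, against 0.0308% of all, and 626 probe sets had an unadjusted p under 0.05. The ctr9 deletion score lay between the paf1 deletion replicates for 7 genes, above both for HSP150 and CIS3 and below both for PIR3. For PIR3 the paf1 deletion mean exceeded the ctr9 deletion score by 0.95.

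**Figure D3:**
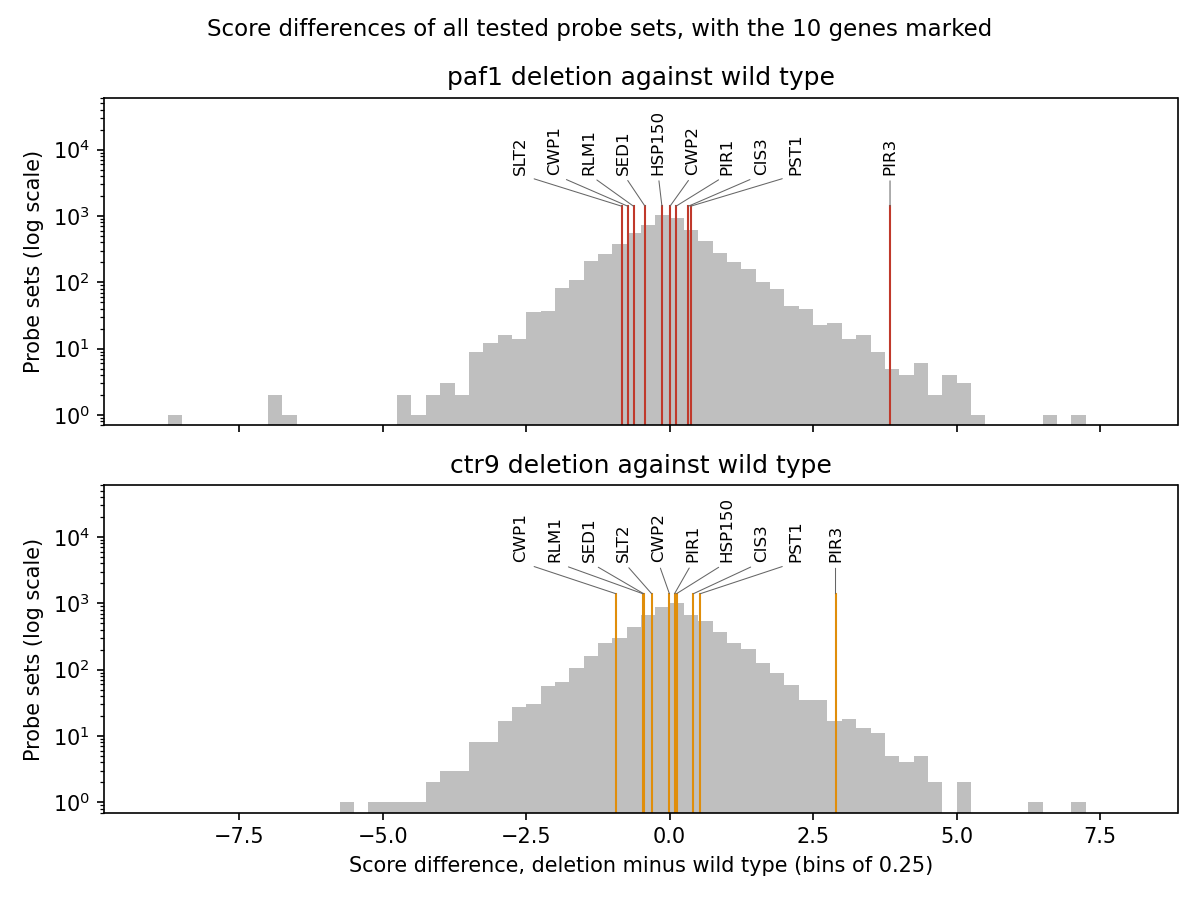
Number of tested probe sets (vertical axis, log scale) by score difference (horizontal axis) for the paf1 deletion (upper) and the ctr9 deletion (lower) against wild type, with the 10 genes as vertical lines. PIR3, at 3.84 and 2.89, lies in the upper tail, and the other 9 genes lie in the centre, between -0.94 and 0.54.

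In the time course, counts of genes at least 1.5-fold from 0 h were small and mostly near the background. PIR3 and PST1 recurred in them. All ratios of a gene share the single 0 h array, so nothing is read from this recurrence. At 2 h, 3 of 10 were higher (PIR3, CWP1 and PST1) where 11.4% of 6492 tested probe sets were, and 0 were lower against 11.3%. At 4 h, PIR3 and PST1 were higher against 18.1% of all, and HSP150 was lower against 14%. At 5 h PIR3 alone was higher against 10.8%, and 0 were lower against 13.1%. PIR3 and PST1 were again the 2 higher genes at 6 h, against 18.5%, and at 8 h, against 17.3%, with 0 lower against 10.6% and 9.84%. Slopes passed for 0 of 10 genes and for 0% of all tested probe sets (limma, Benjamini-Hochberg, smallest adjusted p = 0.557), while 560 had an unadjusted p under 0.05. Of the 10 genes, 8 were above their 0 h signal at 2 h, beside 53.9% of all tested probe sets, and 5 at 4 h, beside 54.8%. The counts were 6 at 5 h beside 48.9%, 6 at 6 h beside 56.7% and 9 at 8 h beside 56.8%. Their median ratio was lowest at 4 h, 0.95 beside 1.05 for all tested probe sets, and highest at 8 h, 1.15 beside 1.06. The 4 h array is the one with the actin ratio of 5.92%, whose part in the 4 h values of these genes was not tested.

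The genes most like PIR3 over the 6 time course arrays, by Pearson correlation of log2 signal among 5432 probe sets with 1 gene, were PDE1 (0.991), ECM21 (0.989) and MRP2 (0.979). They encode a cyclic AMP phosphodiesterase, an arrestin-like adaptor and a mitochondrial ribosomal protein. PDE1 signal was 168, 246, 238, 217, 218 and 277 (0, 2, 4, 5, 6 and 8 h), with 0 h lowest, 8 h highest and 5 h the lowest of the later arrays, as in PIR3. For SLT2 the nearest were YNL165W (0.989), the methionine salvage gene ADI1 (0.975) and the iron-sulfur scaffold gene ISU2 (0.970). With 6 arrays and 5432 probe sets, values this high describe a shared shape only.

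Beyond the 10, 55 other genes of the wall and its signalling were listed, all with a probe set, of which 51 were tested in the strain arrays and 53 in the time course. By the probe set with the highest signal of each gene, 0 of 51 passed in the paf1 deletion, 0 of 51 in the ctr9 deletion and 0 of 53 in the time course (limma, Benjamini-Hochberg). An unadjusted p under 0.05 was found for 7 of 51 in the paf1 deletion, where 963 of 6493 probe sets had one, for 5 of 51 in the ctr9 deletion, beside 626 of 6493, and for 3 of 53 in the time course, beside 560 of 6492. These counts were near the background. Without paf1 deletion replicate 1 WSC3 passed in that deletion, and without replicate 2 ROM1 did. In the paf1 deletion 21 were higher, 29 lower and 1 equal, with a median of -0.06 beside -0.06 for all tested. In the ctr9 deletion 25 were higher and 26 lower, with a median of -0.02 beside 0.045 for all tested. In the time course 35 had a positive slope and 18 a negative one. The median slope was 0.0121 log2 per hour beside 0.01 for all tested, so it was near the background.

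The sensors and the Rho1 module held the 2 largest of these differences in the paf1 deletion, in opposite directions. WSC3, which encodes a sensor of the Wsc family, scored 4.78 and 2.75 in the paf1 deletion, 3.37 in the ctr9 deletion and 5.92 and 6.45 in wild type. All 3 deletion arrays lay below both wild type arrays, yet the difference of -2.42 did not pass (SE 0.72, n = 2 per group, limma adjusted p = 0.135). In the time course WSC3 signal was 184, 83.3, 86.3, 81.3, 85.0 and 73.4 (0, 2, 4, 5, 6 and 8 h). It was 0.40- to 0.47-fold the 0 h signal at each later time, with no further trend after 2 h.

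ROM1, which encodes an exchange factor that activates Rho1, scored 6.45 and 5.13 in the paf1 deletion, 5.57 in the ctr9 deletion and 3.11 and 3.36 in wild type. The deletion arrays were all above the wild type pair, and the difference of 2.56 did not pass (SE 0.62, n = 2 per group, limma adjusted p = 0.0808). ROM1 signal was 82.3, 189, 185, 157, 185 and 186 (0, 2, 4, 5, 6 and 8 h), which is 1.90- to 2.29-fold the 0 h value. ROM2, its paralogue, differed by 0.10 in the paf1 deletion, and RHO1 itself by 0.18. Of this list of 15, 14 were tested in the strain arrays, 5 higher and 9 lower in the paf1 deletion with a median of -0.26.

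Of the kinase cascade and its phosphatases, 10 of 11 were tested in the strain arrays and 4 were higher in the paf1 deletion and 6 lower, with a median of -0.12. The kinase genes PKC1 and BCK1 differed by -0.79 and -0.77, MKK1 by 0.61 and MKK2 by -0.06. SDP1, which encodes a phosphatase of Slt2, scored 3.79 and 4.83 in the paf1 deletion, 5.12 in the ctr9 deletion and 2.83 and 2.10 in wild type, and the difference of 1.84 did not pass (SE 0.68, limma adjusted p = 0.241). As with PIR3, both its wild type scores were under the filter limit of 2.84, so it was tested only through its deletion scores. SDP1 signal was 5.2 before doxycycline, within the range of the untargeted controls, and 82.8, 72.3, 87.6, 82.1 and 65.1 later (2, 4, 5, 6 and 8 h), all above that range. PTP3, another phosphatase gene, differed by -1.74 (SE 0.67, limma adjusted p = 0.256) in the paf1 deletion, and PTP2 by 1.83 (SE 0.69, limma adjusted p = 0.414) in the ctr9 deletion. KDX1, a pseudokinase gene related to SLT2, had a mean score under the filter. Its signal was 24.3 at 0 h, within the range of the untargeted controls (at most 44.2). It was highest at 6 h, 57.6, and 46.4 at 8 h, just above that range.

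SWI4, SWI6 and SKN7 encode the transcription factors listed beside Rlm1, and all 3 had lower scores in the paf1 deletion, by -0.67, -0.05 and -0.33. The largest difference of this list was that of SWI4 in the ctr9 deletion, -2.62 (SE 0.91, limma adjusted p = 0.387), where its score of 1.24 fell among those of the untargeted controls. PIR5, the remaining gene of the PIR family, scored 1.03 and 2.43 in the paf1 deletion, 1.99 in the ctr9 deletion and 2.89 and 1.52 in wild type, which was under the filter. Its signals ran from 26.3 at 5 h to 53.8 at 2 h.

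The other reported targets of the pathway numbered 11, all tested, of which 6 were higher and 4 lower in the paf1 deletion with a median of 0.06. GSC2, which encodes the inducible catalytic subunit of glucan synthase, had the largest difference of the list, 1.21 in its brightest probe set (SE 0.49, n = 2 per group, limma adjusted p = 0.286), with scores of 7.29 and 7.32 in the paf1 deletion, 7.23 in the ctr9 deletion and 6.34 and 5.86 in wild type. Its 7 probe sets did not give 1 answer, since 4 of them passed in the paf1 deletion, with differences over all 7 from 1.14 to 5.00, and 0 of 7 passed in the ctr9 deletion. Signal of the brightest was 647, 1355, 1458, 2089, 1299 and 1841 (0, 2, 4, 5, 6 and 8 h). The probe sets differed in the time course too, where 4 of the 6 tested had a positive slope and the others had slopes of -0.36 and -0.12 log2 per hour. GSC2 and FKS1 are close paralogues, and whether probes were shared between them was not tested. FKS1, the constitutive counterpart, differed by -0.13, and CRH1, a wall crosslinking enzyme gene that is a known Rlm1 target, by 0.12. CHS3, for chitin synthase III, had the other smallest p of the list at -0.64 (limma adjusted p = 0.569).

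Of the other covalently bound wall mannoproteins, 13 of 14 were tested in the strain arrays, 6 higher and 7 lower in the paf1 deletion with a median of -0.06. SPI1, induced in stationary phase, scored 7.44 and 6.76 in the paf1 deletion, 5.68 in the ctr9 deletion and 6.37 and 4.87 in wild type (difference 1.48 for the paf1 deletion, SE 0.62, limma adjusted p = 0.298). Its signal was 103, 225, 355, 310, 193 and 299 (0, 2, 4, 5, 6 and 8 h). TIR3, of the cold- and hypoxia-induced mannoproteins, had the smallest slope p of the list at 0.10 log2 per hour (SE 0.03, limma adjusted p = 0.557). EGT2, a gene of daughter cell separation, differed by -0.66 in the paf1 deletion (limma adjusted p = 0.556).

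Over all 53 listed pathway genes tested in the time course, ROM1, SDP1, GSC2 (by its brightest probe set) and SPI1 were at least 1.5-fold above 0 h at all 5 later times, 4 of 53 beside 3.59% of all tested probe sets. WSC3 and TIR1 were at least 1.5-fold below it throughout, 2 of 53 beside 1.66%. SDP1, with a 0 h signal of 5.2 under the signal filter limit of 37.39, was tested only through its later arrays. Its place among the 4 was thus favoured by the filter, and nothing is read from that count. Both counts rest on the single 0 h array, and no single time was tested.

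**Figure D4:**
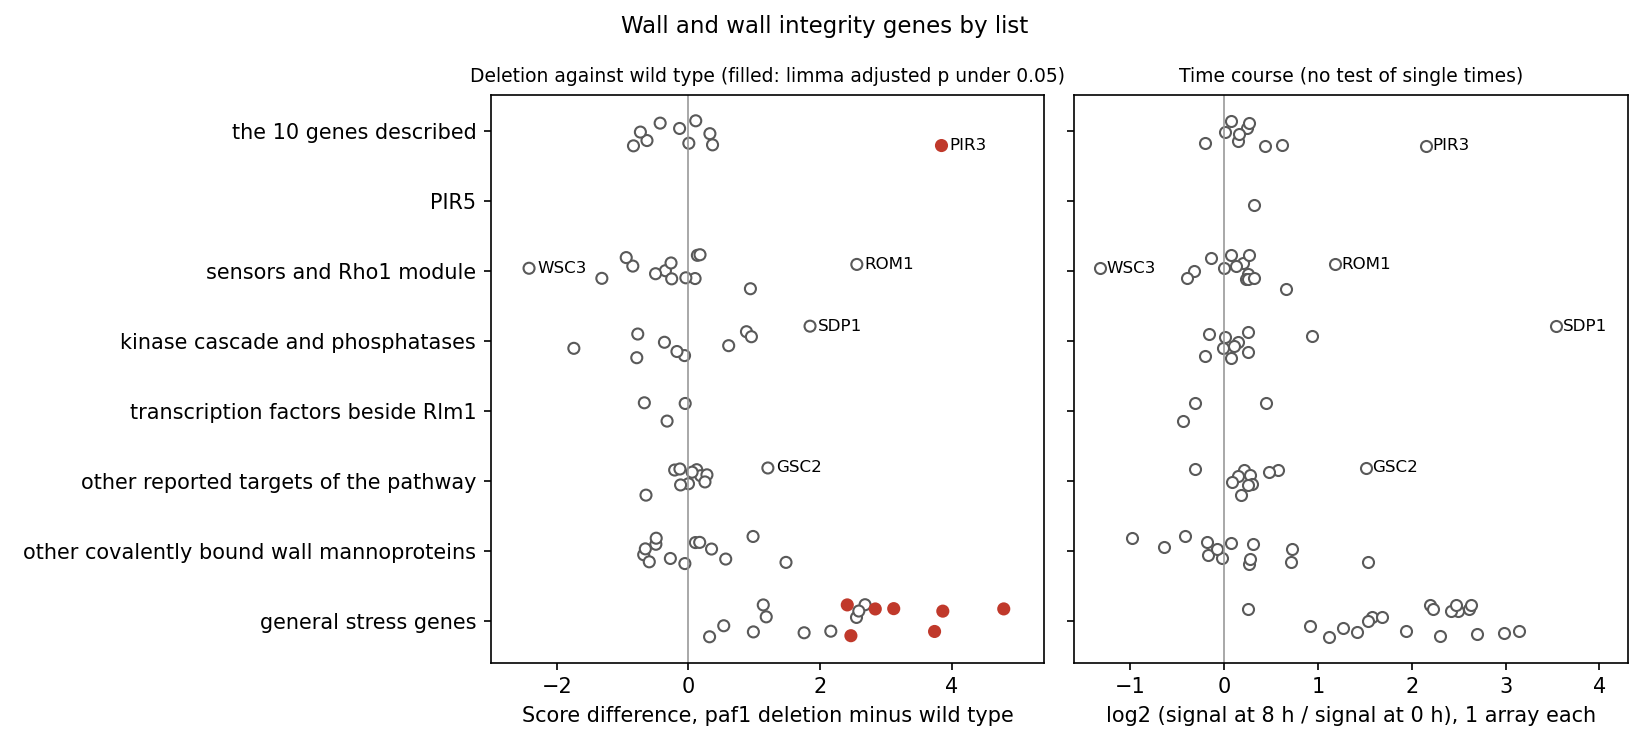
Each point is a gene, by its probe set with the highest mean signal, set out by list (vertical axis). Left, score difference between the paf1 deletion and wild type (filled where limma adjusted p was under 0.05), and right, log2 ratio of the signal at 8 h to that at 0 h, with signals under 5.6 set to 5.6. The filled points are PIR3, at 3.84, and 7 of the general stress genes. GSC2 is unfilled by its brightest probe set, although 4 of its 7 probe sets passed. In the right panel SDP1, whose 0 h signal was at the floor, lies beyond PIR3 (2.15), and several unfilled stress genes lie as far out as PIR3. The right panel holds 1 array per time.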

How the data were processed

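The deposited table gave 9335 probe sets on 11 Affymetrix arrays. For the time course the authors had deposited signal intensity on a linear scale, brought to a common level. The strain columns held a deposited score bounded at -10 and 10, of unstated scale, and how it was computed is not stated in the labels. The 60 control probe sets were left out of tests. Probe sets were named by the platform annotation (6504 with 1 gene, 328 with several, 2443 with none), and WSC1 was found under SLG1. A floor of 5.6, the 10th percentile, was applied to signals before taking log2. Tests kept probe sets whose mean reached the 30th percentile. Linear models (lmFit, eBayes with a trend) were fitted with limma 3.58.1 in R 4.3.3, 1 over the 5 strain arrays (2 residual degrees of freedom, the lone ctr9 deletion array assumed to vary like the others) and 1 over the time course against hours (4 residual degrees of freedom). All p-values were two-sided and adjusted by Benjamini-Hochberg across every tested probe set, with a threshold of 0.05. The fits were also run on simulated data with planted changes larger than most differences described here, and nothing is read from that run. SE values are those of the fit. For a gene with several probe sets, the one with the highest mean time course signal was used.

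The genes described and the lists were chosen with earlier results of these data known. The rule for names took the 10 genes, PAF1 and CTR9, and from each list the genes past the threshold or, where fewer than 2 passed, the 2 with the smallest p in that comparison, and for PIR3 and SLT2 the 3 most similar time profiles. ROM2, RHO1, PKC1, BCK1, MKK1, MKK2, SWI6, FKS1, CRH1 and TIR1 were named for their role or count after values were seen. The number of arrays limited the precision.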

Additional observations from a re-analysis of the deposited data

How the results depend on the processing

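For the paf1 deletion, the count of 111 probe sets that passed became 41 without a filter, 56 with a filter at the 50th percentile, 42 with quantile normalization, 39 without the variance trend, 53 with cyclic loess normalization (added after seeing the data) and 198 with the replicate block. Leaving out 1 array gave 0 to 190, with 0 without either wild type array. The 2 of the ctr9 deletion became 0 with either filter, either normalization, no trend or without either wild type array, and 94 with only the compared arrays. Of the listed pathway genes, 1 instead of 0 passed with the replicate block (ROM1), and 0 to 1 when 1 array was left out, namely WSC3 without paf1 deletion replicate 1 and ROM1 without replicate 2. In the ctr9 deletion 1 passed with only the compared arrays (WSC3). The PIR3 difference in the paf1 deletion ran from 3.45 to 4.23 and passed under 7 of 10 alternatives. It did not pass with quantile normalization (3.76), without wild type replicate 1 (4.16) or without replicate 2 (3.52), and at the 50th percentile filter it was not tested. The cause was not tested. Nothing is read from how often PIR3 passed, since its paf1 deletion score was known when the genes were chosen. PIR3 was also tested only through its deletion scores. Slope counts by limma were 0 under each alternative run, including without the 4 h and 6 h arrays. Signs of differences within the replicate spread changed when 1 array was left out, as for HSP150, PIR1, CIS3 and CWP2 without a wild type array. Each of the 10 genes had 1 probe set, so a mean over probe sets changed nothing. Same-numbered wild type and paf1 deletion arrays did not deviate together (correlation 0.008). This does not settle whether they were paired, which no label states.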
